A study of Mus musculus with 3 samples.

Results

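Plasminogen activators, their receptor, 3 serpins and the kallikrein *Klk8* were described in NIH3T3 cells, an established fibroblast line derived from mouse embryos. The set holds 7 of the 15554 genes in the expression table and was picked by symbol: *Plau*, *Plat*, *Plaur*, *Klk8*, *Serpine2*, *Serpinf1* and *Serping1*. The cells were starved of serum in IMDM for 24 h and then kept in serum-free IMDM for a further 24 h, either alone (CTRL), with GDF15 protein at 100 ng/mL, or with TGF-β protein at 4 ng/mL. GDF15 belongs to the TGF-β superfamily, and the study set the response of fibroblasts to GDF15 beside their response to TGF-β. RNA from 3 RNA samples of a treatment was pooled before sequencing, so there was 1 library per treatment and 3 libraries in all. Differences between treatments therefore lack a replicate check, and neither p-values nor SDs are given. FPKM scales the fragments of a gene by its exon length and by library depth, so genes can be compared within a library. Genes whose FPKM averaged 1 or more over the 3 libraries are called expressed here, which holds for 9226 genes and for 5 of the 7.

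Plasmin, the main fibrin-degrading protease, is made from plasminogen by urokinase (*Plau*) and by tissue-type plasminogen activator (*Plat*). Urokinase is held at the cell surface by its receptor (*Plaur*), and serpins block proteases by trapping them in a covalent complex. In fibroblasts the system is known for its part in matrix turnover, migration and wound repair.

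Of the 7 genes, *Klk8* lay more than 2-fold below CTRL in both stimulated libraries. *Plaur* was lower with GDF15 and *Plat* was lower with TGF-β, each by more than 1.5-fold but less than 2-fold. With GDF15, *Klk8* and *Plaur* lay just inside these limits once a trend of the differences with transcript length was removed. *Serpinf1* was by far the most abundant of the 7 and was higher with either protein. *Plau* differed from CTRL by less than 1.5-fold with either protein, and *Serpine2* and *Serping1* were at or near 0 in the 3 libraries.

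Promoters are shown for the 3 genes that stood apart from CTRL in both stimulated libraries and had an entry in the RefSeq promoter table of GRCm38.p6, in which 4 of the 7 genes matched (*Klk8*, *Plaur*, *Serpinf1* and *Serpine2*). Each sequence runs 5′ to 3′ on the strand of the gene over the 250 bases before the transcription start, and capitals mark the searched motifs: CAGAC, the core of the Smad-binding element, TGANTCA, the AP-1 site, TATAAA, the TATA box, and GGGCGG, the GC box. Both strands were searched. The *Klk8* window is chr7:43797327-43797576 on the plus strand, and the *Plaur* window is chr7:24462233-24462482 on the plus strand. For *Serpinf1* the 172 bases outside the GENCODE gene model are printed, chr11:75422702-75422873 on the minus strand, because the last 78 bases of the window lie inside that model.
*Klk8*: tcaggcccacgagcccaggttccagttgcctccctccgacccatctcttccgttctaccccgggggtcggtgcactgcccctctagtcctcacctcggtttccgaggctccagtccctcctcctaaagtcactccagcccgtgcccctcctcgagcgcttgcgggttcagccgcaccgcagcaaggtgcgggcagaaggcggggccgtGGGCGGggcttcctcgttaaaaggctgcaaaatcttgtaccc
*Plaur*: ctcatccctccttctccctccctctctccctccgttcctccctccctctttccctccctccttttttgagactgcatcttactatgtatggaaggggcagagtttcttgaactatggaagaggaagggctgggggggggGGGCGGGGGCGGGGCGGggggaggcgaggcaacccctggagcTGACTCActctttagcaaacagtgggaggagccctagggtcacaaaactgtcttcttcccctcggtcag
*Serpinf1*: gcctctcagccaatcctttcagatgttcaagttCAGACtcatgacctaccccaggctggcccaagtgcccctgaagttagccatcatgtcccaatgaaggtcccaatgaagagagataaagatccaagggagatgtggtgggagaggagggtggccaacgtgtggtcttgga

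The *Klk8* window had 1 GC box, 37 to 42 bases before the start. The *Plaur* window had 1 AP-1 site, 63 to 69 bases before the start, and 3 GC boxes within the 95 to 111 bases before it, the last 2 of which share a base. *Serpinf1* had 2 matches to the Smad-binding core, at 213 to 217 bases before the start and at 34 to 38 bases before it, and the latter falls in the stretch not printed. Among all 32851 promoters of that table, cut to the same length, 42.2% held the Smad-binding core, 32.7% held a GC box, 12.4% held a TATA box and 6.75% held an AP-1 site. The Smad-binding core and the GC box are thus common in windows of this length, while the AP-1 match of *Plaur* is the least common of the motifs found. None of the 4 matched genes had a TATA box in its window. The G and C content was 65.2% for *Klk8*, 59.6% for *Plaur* and 51.6% for the whole *Serpinf1* window, against a median of 52.4% over all promoters. A match of letters is a description and was not tied to the expression values.

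The depth of the libraries, estimated from the whole-fragment steps of low FPKM values, was 16.8 (1e6 fragments) in CTRL, 19.8 in the GDF15 library and 16.2 in the TGF-β library. The 95% intervals below are exact Poisson or binomial intervals on estimated fragments. They cover counting error only, since reads without molecular identifiers are not independent molecules and cultures and library preparations were not replicated. Of 10 fibroblast markers, 9 were expressed (all but *Lum*), with summed FPKM of 12620, 16379 and 14397 in CTRL, GDF15 and TGF-β. The sum is mostly *Fn1*, *Vim* and collagens, and the markers did not move together. *Fn1* (0.64) and *Col1a1* (0.60) were more than 1.5-fold higher than CTRL with GDF15 and *Col1a1* (0.79) and *Col1a2* (0.66) with TGF-β, while *Pdgfra* (-0.79) and *Dcn* (-0.75) were more than 1.5-fold lower with TGF-β, and 5 of the 9 lay below CTRL there. No listed epithelial or endothelial marker was expressed by this limit, with summed FPKM of at most 0.735 and 0.329, and *Epcam* was listed at 0. Of the 6 macrophage and leukocyte markers in the table, *Cd14* and *Cd68* passed it, with summed FPKM of the list between 6.29 and 7.49 and *Emr1* at 0. Of the neuronal list, *Tubb3* passed it, at 0.668, 0.995 and 1.47 in CTRL, GDF15 and TGF-β, while *Snap25* and *Syt1* were at 0. The part of these markers in the differences was not tested. In bulk RNA, fewer cells of a type and less RNA per cell cannot be told apart.

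**Figure D1:**
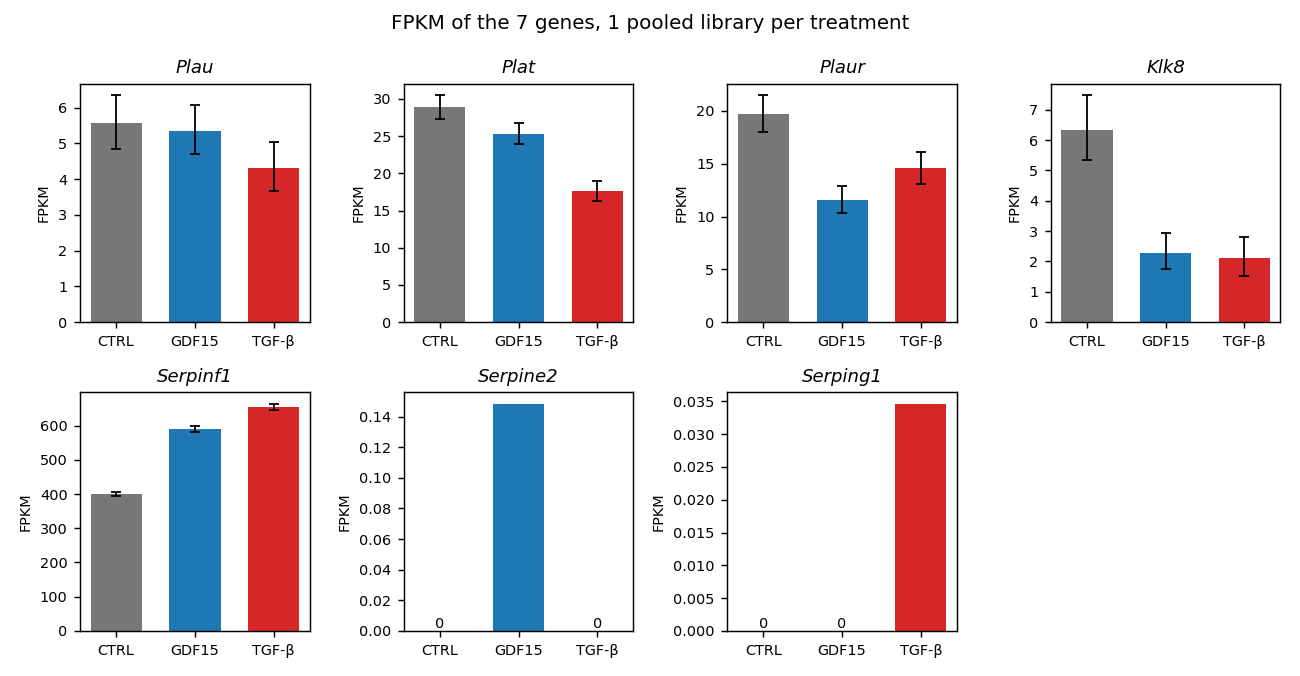
FPKM of the 7 genes in the CTRL, GDF15 and TGF-β libraries (1 library each), each gene on its own axis from 0, with error bars that are 95% exact Poisson intervals on the estimated fragments (not drawn for *Serpine2* and *Serping1*). *Serpinf1* reaches 655 with TGF-β, *Klk8* is lower in both stimulated libraries than in CTRL, and *Serpine2* and *Serping1* are at or near 0.

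*Plau* (urokinase, chr14:20836660-20843385, plus strand, mm10) is the activator that works at the cell surface. Its FPKM was 5.57 in CTRL, 5.35 with GDF15 and 4.32 with TGF-β, from an estimated 219, 248 and 163 fragments. The level with GDF15 was 0.962 times that of CTRL (95% counting interval 0.796 to 1.15), which at this depth is not distinguishable from no difference. With TGF-β it was 0.776 times CTRL (0.627 to 0.950) and 0.807 times GDF15 (0.657 to 0.986), so the TGF-β library was the lowest, by a margin beyond counting error but under 1.5-fold. On the scale of differences of log2(FPKM + 1), which understates differences of low genes, *Plau* differed from CTRL by -0.05 with GDF15 and by -0.30 with TGF-β.

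*Plat* (tissue-type plasminogen activator, chr8:22757727-22782844, plus strand) is the activator best known for dissolving fibrin clots. It was the more abundant activator in each library, with an FPKM of 28.9 in CTRL, 25.3 with GDF15 and 17.6 with TGF-β. The difference from CTRL was small with GDF15, at 0.877 times CTRL (0.810 to 0.949), or -0.18 on the log2(FPKM + 1) scale. TGF-β gave the lower level, 0.609 times CTRL (0.555 to 0.669) and 0.694 times GDF15 (0.633 to 0.762). Its difference from CTRL with TGF-β was -0.68 on the log2 scale, and 169 of the 9226 expressed genes had a lower difference. The GDF15 and TGF-β libraries therefore differed from each other more in *Plat* than in the other 4 expressed genes of the set, with a difference of -0.50 for TGF-β against GDF15.

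Summed over *Plau* and *Plat*, FPKM was 34.4 in CTRL, 30.7 with GDF15 and 21.9 with TGF-β. The balance of both activators stayed on the side of *Plat*. The ratio of *Plat* to *Plau* was 5.19 in CTRL (4.48 to 6.01), 4.73 with GDF15 (4.13 to 5.45) and 4.07 with TGF-β (3.44 to 4.87). The intervals of the 3 libraries overlap, but overlap does not settle whether the ratios differ beyond counting error, which was not tested.

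*Plaur* (chr7:24462484-24475968, plus strand) encodes the lipid-anchored receptor that gathers urokinase on the membrane. Its FPKM was 19.7 in CTRL, 11.6 with GDF15 and 14.6 with TGF-β, from an estimated 498, 345 and 354 fragments. Both stimulated libraries were below CTRL, and GDF15 gave the lower level, opposite to the order seen for *Plat*. The level with GDF15 was 0.587 times CTRL (0.510 to 0.674), a difference of -0.72 on the log2 scale, and 46 of the 9226 expressed genes had a lower difference. With TGF-β it was 0.739 times CTRL (0.642 to 0.847), a difference of -0.41, and TGF-β exceeded GDF15 by 1.26 times (1.08 to 1.46).

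The ratio of ligand to receptor differed between the libraries. *Plau* to *Plaur* was 0.282 in CTRL (0.240 to 0.332), 0.463 with GDF15 (0.391 to 0.546) and 0.297 with TGF-β (0.244 to 0.357). The ratio with GDF15 lay above the other two beyond counting error, since *Plaur* was lowest there while *Plau* was close to CTRL. Such ratios within a library do not depend on how libraries are scaled to each other. They do depend on the trend with transcript length given below, since *Plaur* (1506 bases) is shorter than *Plau* (2342 bases). With that trend removed, *Plau* and *Plaur* differed from CTRL by 0.01 and -0.58 with GDF15, against -0.05 and -0.72 before.

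**Figure D2:**
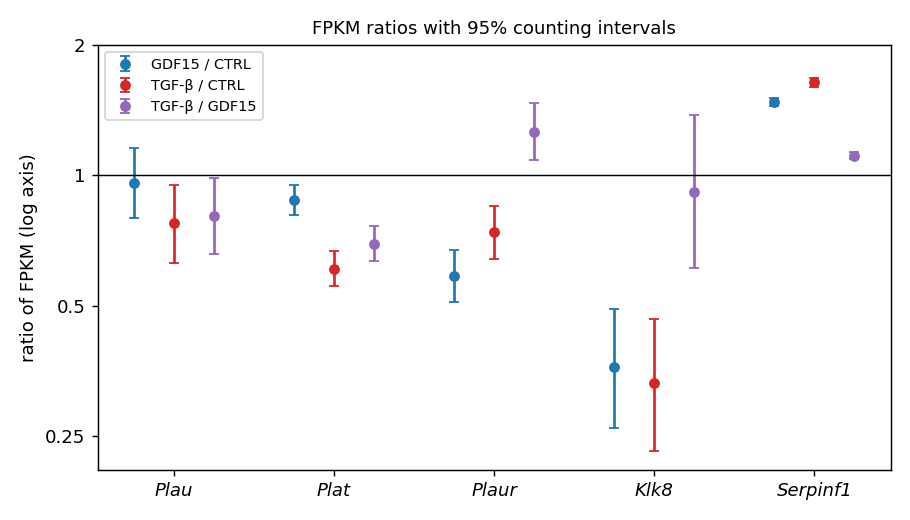
Ratios of FPKM between libraries (log axis) for the 5 expressed genes of the set, with 95% counting intervals as bars and a line at 1. *Klk8* is at 0.361 for GDF15 to CTRL and 0.331 for TGF-β to CTRL, *Serpinf1* is at 1.48 and 1.64, and *Plat* and *Plaur* differ in which protein gives the lower level.

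*Klk8* (neuropsin, chr7:43797577-43803826, plus strand) is a secreted serine protease of the tissue kallikrein family, best known from brain and skin. Its FPKM was 6.35 in CTRL, 2.29 with GDF15 and 2.10 with TGF-β. These levels rest on few fragments, an estimated 141 in CTRL (119 to 166), 60.1 with GDF15 (45.8 to 77.2) and 44.9 with TGF-β (32.8 to 60.2). The libraries differ in depth, so levels are compared as ratios of FPKM. The ratio to CTRL was 0.361 with GDF15 (0.262 to 0.490) and 0.331 with TGF-β (0.231 to 0.466). Between both stimulated libraries the ratio was 0.917 (0.611 to 1.38), a difference not detectable at this depth.

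On the log2(FPKM + 1) scale *Klk8* differed from CTRL by -1.16 with GDF15 and by -1.24 with TGF-β, and both comparisons share the CTRL library. Only 9 of the 9226 expressed genes lay lower with GDF15, and 21 lay lower with TGF-β. The study had placed *Klk8* among its differentially expressed genes from these same libraries, so its 2-fold difference with GDF15 is a description and not independent evidence. In GENCODE, 382 of the 1540 exon bases of *Klk8*, or 24.8%, lie across from exons of the noncoding transcript 2310002F09Rik on the opposite strand (chr7:43695209-43797958). The libraries were stranded, but whether strand was used in counting is not given in the sources used here, so reads of both genes may have been counted together.

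*Klk8* was the only tissue kallikrein that was expressed. Of the 22 other kallikrein genes in the table, all on chromosome 7, 17 were at 0 in the 3 libraries and the highest value of any was 0.866. *Klk9*, which ends 820 bases before *Klk8*, had an FPKM of 0.462 in CTRL, 0.108 with GDF15 and 0 with TGF-β. *Klk7*, a skin kallikrein 7468 bases after *Klk8*, had 0.866, 0.743 and 0.291, and *Klk14*, another member of the cluster, had 0.300, 0.0430 and 0.368. The 22 genes summed to 1.93 in CTRL, 0.894 with GDF15 and 0.658 with TGF-β, levels that rest on at most about 28 fragments a gene (an estimated 27.5, 27.9 and 8.90 for *Klk7*). Kallikreins have close paralogs, and reads shared among them could have been split in counting.

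*Serpinf1* (chr11:75409769-75422701, minus strand) encodes pigment epithelium-derived factor, a secreted serpin that does not inhibit proteases and is known for restraining vessel growth. Its FPKM was 400.0 in CTRL, 590.2 with GDF15 and 655 with TGF-β, which placed it at rank 104, 51 and 50 among the genes of each library. The order was CTRL, GDF15, TGF-β, and each step exceeded counting error, which is small at an estimated 12290 or more fragments. The ratio to CTRL was 1.48 with GDF15 (1.44 to 1.51) and 1.64 with TGF-β (1.60 to 1.68), and TGF-β exceeded GDF15 by 1.11 times (1.09 to 1.13). On the log2 scale these were differences of 0.56, 0.71 and 0.15. For TGF-β against GDF15, 1235 of the 9226 expressed genes had a higher difference than *Serpinf1*. *Serpinf1* made up 86.9%, 93.0% and 94.4% of the summed FPKM of the 7 genes in CTRL, GDF15 and TGF-β. Without it, the other 6 summed to 60.5, 44.7 and 38.6, which is in the opposite order to the sum with it, 460.5, 635 and 693.

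*Serpine2* (chr1:79794197-79861180, minus strand) encodes protease nexin-1, an inhibitor of thrombin, urokinase and plasmin. It was listed at 0 in CTRL and with TGF-β, and at 0.148 with GDF15, or an estimated 6.50 fragments. At these depths 3 fragments would equal an FPKM of 0.0809 in CTRL and 0.0840 with TGF-β, and levels under these rest on fewer fragments than the floor of 3 used here. *Serping1* (chr2:84765387-84775444, minus strand) encodes the C1 inhibitor, which blocks the first complement proteases and plasma kallikrein. It was listed at 0 in CTRL and with GDF15 and at 0.0346 with TGF-β, about 1 fragment and under the FPKM of 0.105 that 3 fragments would give. No fold is given for either gene. The ribosomal protein genes were above 0 in every library for all but *Rpl10l* of 88 rows. They are other genes, so this does not show whether an estimate failed at *Serpine2* or *Serping1*. Whether the values of 0 listed for *Serpine2* and *Serping1* reflect absence was not tested.

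In the comparison of GDF15 with CTRL, 1 of the 7 genes was more than 2-fold lower (*Klk8*), beside 0.0772% of all 15554 genes. At the same fold 0 were higher, beside 0.212%. At 1.5-fold, 2 were lower (*Plaur* and *Klk8*), beside 1.02%, and 0 were higher, beside 0.791%. Once the trend with transcript length was removed, 0 of 7 passed 2-fold, beside 7 lower and 31 higher of the 15444 genes of known length. With that trend removed, *Plaur* dropped out at 1.5-fold and *Serpinf1* passed. This left 1 lower (*Klk8*), beside 57 of the 15444 genes, and 1 higher, beside 136. Before that removal *Serpinf1* lay just inside the limit, at 0.56 against 0.58 on the log2 scale, and it also passed under upper-quartile scaling and with the running median removed. In the comparison of TGF-β with CTRL, 1 of 7 was more than 2-fold lower (*Klk8*), beside 0.334%, and 0 were higher, beside 0.579%. At 1.5-fold, 2 were lower (*Plat* and *Klk8*), beside 1.95%, and 1 was higher (*Serpinf1*), beside 1.65%. TGF-β and GDF15 differed by more than 1.5-fold in 0 of the 7 genes, beside 0.624% of all genes higher and 0.399% lower. The median difference of the 5 expressed genes was -0.18 with GDF15 and -0.41 with TGF-β, beside -0.03 and -0.07 over the 9226 expressed genes. With *Serpine2* and *Serping1*, which are near 0, the medians over all 7 were -0.05 and -0.30, beside 0.00 over all genes in each comparison.

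The spread of differences among the genes nearest in mean expression, given as the scaled median absolute deviation, describes how far genes of that level lay apart without replicates. *Klk8* lay 5.36 such spreads below the local median with GDF15 and 4.93 below it with TGF-β. *Plaur* lay 3.12 below with GDF15 and 1.54 below with TGF-β, whereas *Plat* lay 0.672 below with GDF15 and 2.99 below with TGF-β. *Serpinf1* lay 2.33 and 2.94 above, but only 0.505 above for TGF-β against GDF15. *Plau* stayed within 1.19 spreads in both comparisons with CTRL.

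**Figure D3:**
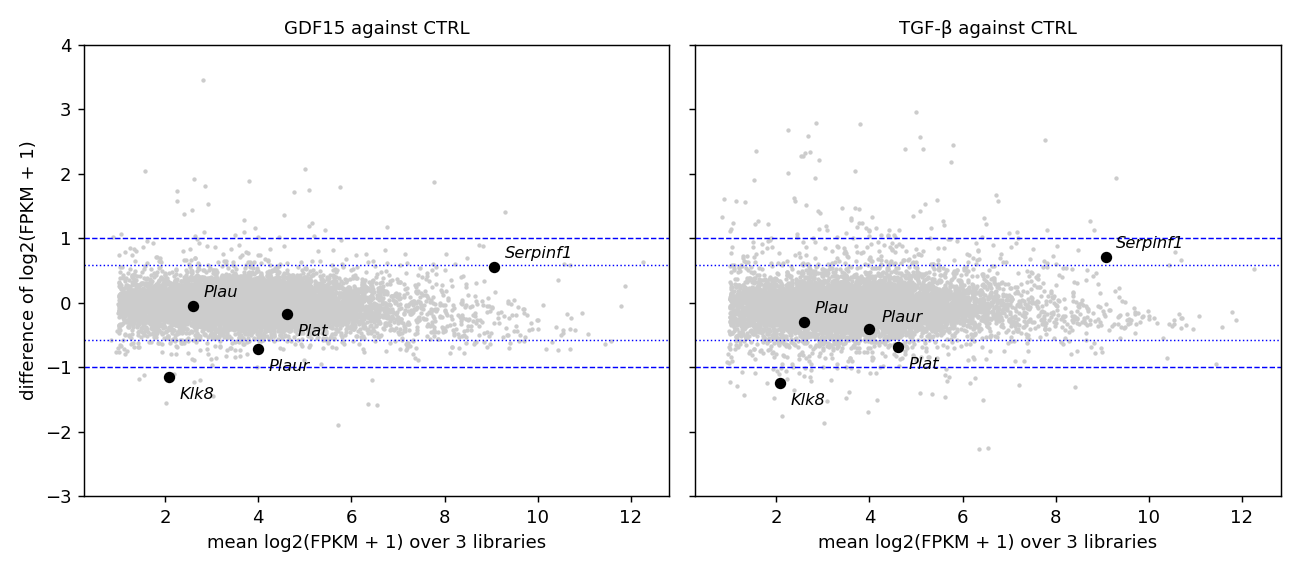
Difference of log2(FPKM + 1) from CTRL against the mean log2(FPKM + 1) over 3 libraries for the 9226 expressed genes (grey) and the 5 genes of the set (black), with dashed lines at 2-fold and dotted lines at 1.5-fold. *Klk8* lies below the lower dashed line in both panels, at -1.16 and -1.24, and *Serpinf1* crosses the upper dotted line with TGF-β, at 0.71.

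In these libraries the difference from CTRL also moved with transcript length. With GDF15 the median difference was -0.24 over 1249 expressed genes with a longest coding transcript of up to 1500 bases and 0.05 over 4874 expressed genes above 3000 bases, and with TGF-β the medians were -0.17 and -0.03. *Klk8* (1322 bases) and *Plaur* (1506 bases) are short, so they were set beside genes of their own length. Among 1020 expressed genes 0.8 to 1.25 times as long as *Klk8*, the median difference was -0.18 with GDF15 and -0.15 with TGF-β, and 0.0980% lay lower than *Klk8* in each comparison. Among 1265 genes of like length to *Plaur*, the median was -0.15 with GDF15 and -0.14 with TGF-β, and *Plaur* lay below 99.1% of them with GDF15 but below 87.9% with TGF-β. With the trend in length removed, *Klk8* was at -0.99 with GDF15, just inside 2-fold, and at -1.16 with TGF-β, while *Plaur* with GDF15 was at -0.58, just inside 1.5-fold. *Serpinf1* (1832 bases) lay above its length class, at 0.66 with GDF15 once the trend was removed, against 0.56 before.

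**Figure D4:**
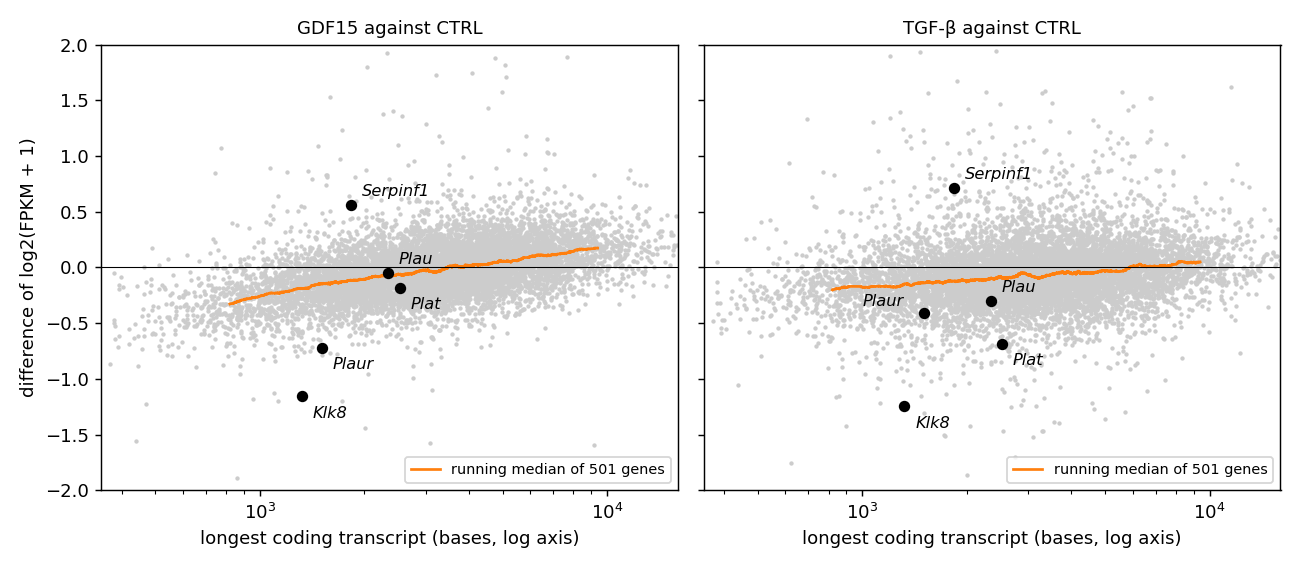
Difference of log2(FPKM + 1) from CTRL against the length of the longest coding transcript (log axis) for 9179 expressed genes of known length (grey), of which 35 fall outside the axes, with a running median in orange. The median lies below 0 for short transcripts in both panels, and *Klk8* at -1.16 and -1.24 lies well below it.

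Other genes of the plasminogen system were counted in the same way. Of 21 listed genes in the table, 7 were expressed. More than 1.5-fold lower was 1 of these with GDF15, beside 1.55% of all expressed genes, and 1 with TGF-β, beside 3.06%. With either protein 0 were more than 1.5-fold higher, beside 1.27% with GDF15 and 2.54% with TGF-β. *Plg*, which encodes plasminogen itself, was listed at 0 in the 3 libraries. The surface plasminogen receptor genes *Anxa2* and *S100a10* were abundant, with *Anxa2* at 629, 626 and 733 in CTRL, GDF15 and TGF-β and *S100a10* at 399, 298 and 384. *Lrp1*, the endocytic receptor that clears protease and serpin complexes, had an FPKM of 158, 219 and 213, a difference from CTRL of 0.47 with GDF15 and 0.43 with TGF-β. *Mrc2*, a collagen uptake receptor that binds the urokinase receptor, had 65.6, 56.5 and 42.6, and its difference of -0.61 with TGF-β passed 1.5-fold. *Eno1*, a glycolytic enzyme that also binds plasminogen, had 2.46, 1.26 and 2.93 and passed 1.5-fold with GDF15 at -0.61. Its value is uncertain, since near-identical copies in the genome can take its reads.

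Thrombin is a main target of protease nexin-1. Of 10 genes listed for thrombin and the protease-activated receptors, 3 were expressed. *F2r*, the main thrombin receptor, had an FPKM of 9.50 in CTRL, 16.6 with GDF15 and 20.5 with TGF-β. Its differences of 0.74 and 1.03 made it the sole gene of this list past 1.5-fold with either protein, beside 1.27% of all expressed genes higher with GDF15 and 2.54% with TGF-β, and past 2-fold with TGF-β, beside 0.932%. *F3*, which encodes tissue factor, the starter of coagulation, had 98.8, 110.1 and 82.7. *Thbd*, which encodes the thrombin cofactor thrombomodulin, had 70.7, 71.3 and 65.7, within 1.5-fold of CTRL in each case.

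C1 inhibitor, the product of *Serping1*, blocks proteases of the complement system. Of 18 listed complement genes in the table, 9 were expressed, of which 4 were more than 1.5-fold lower with TGF-β, beside 3.06% of all expressed genes, and 2 of them more than 2-fold, beside 0.553%. With GDF15, 1 was more than 1.5-fold lower, beside 1.55%, and 0 of the 9 were more than 1.5-fold higher with either protein, beside 1.27% with GDF15 and 2.54% with TGF-β. *C1s*, a protease of the C1 complex, had an FPKM of 21.2 in CTRL, 17.2 with GDF15 and 9.40 with TGF-β, a difference of -0.29 and -1.10. *C1ra* had 19.7, 17.6 and 11.2 and *C1rb* had 10.7, 10.4 and 6.15, but these near-identical paralogs could have shared reads. *C3*, the central complement component, had 7.29, 4.50 and 2.91, with differences of -0.59 and -1.08. Higher with TGF-β, though inside 1.5-fold, were *C4b*, a component of the classical and lectin pathways, at 5.76, 7.44 and 8.04 (a difference of 0.42), and *Masp2*, a lectin pathway protease, at 1.08, 1.18 and 2.09 (a difference of 0.57). The median of the 9 genes was -0.12 with GDF15 and -0.32 with TGF-β. Of the genes that were not expressed by the limit used here, *Masp1*, another protease of the lectin pathway, was over 1.5-fold higher with TGF-β, with an FPKM of 0.524 in CTRL, 1.08 with GDF15 and higher still with TGF-β, a difference from CTRL of 0.59 for the latter. *C4b*, *Masp2* and *Masp1* are named after their values were seen.

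Among the other serpins, 7 of 38 genes were expressed. *Serpinh1*, the collagen chaperone of the endoplasmic reticulum, had an FPKM of 265, 348 and 380.4, differences of 0.39 and 0.52 from CTRL. *Serpinb6a*, an intracellular inhibitor, had 261, 201 and 197, differences of -0.38 and -0.41. *Serpina3n*, a secreted inhibitor, had 19.1, 19.1 and 24.0. *Serpinb1a*, an inhibitor of neutrophil proteases, had 12.4, 13.6 and 19.1, and its difference of 0.59 with TGF-β was the sole one of these 7 past 1.5-fold, beside 2.54% of all expressed genes higher. The median of the 7 was 0.00 with GDF15 and 0.32 with TGF-β. The serpins of clades A and B have close paralogs, so their split of reads is uncertain.

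Of 17 other secreted or surface serine proteases, 3 were expressed. *Prss23*, a secreted trypsin-like protease, had an FPKM of 93.5 in CTRL, 141 with GDF15 and 171 with TGF-β, and its differences of 0.59 and 0.87 passed 1.5-fold with both proteins, beside 1.27% and 2.54% of all expressed genes higher. It was thus higher where *Klk8* was lower. *Htra3* had 5.23, 4.49 and 5.59 and *Prss12* had 7.35, 6.80 and 5.31, all within 1.5-fold of CTRL.

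**Figure D5:**
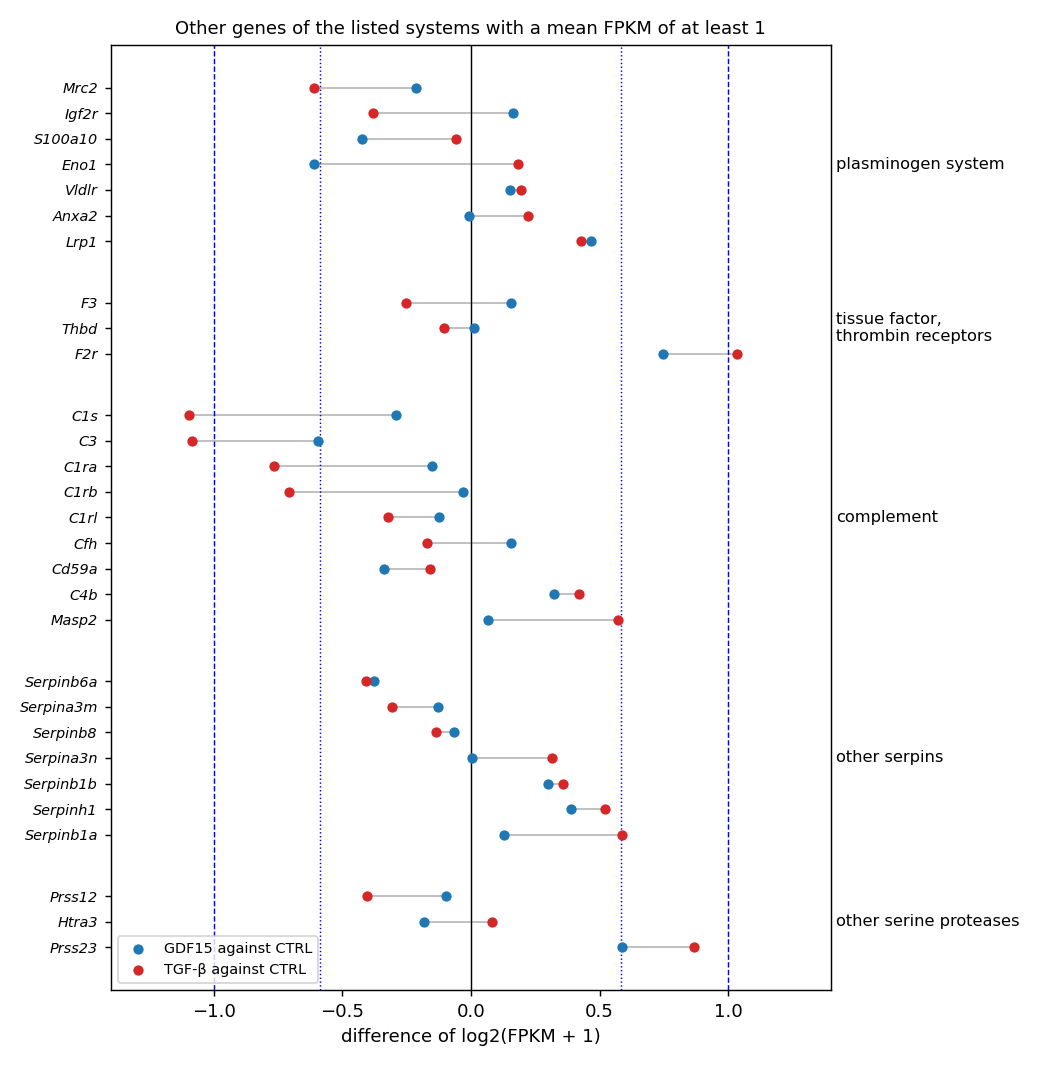
Difference of log2(FPKM + 1) from CTRL with GDF15 (blue) and TGF-β (red) for the listed genes that were expressed, by group, with dotted lines at 1.5-fold and dashed lines at 2-fold. *F2r* reaches 1.03 with TGF-β, and *C1s* and *C3* lie at -1.10 and -1.08.

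Profiles over the 3 libraries were also compared, by Euclidean distance between centred log2(FPKM + 1) values, as a description over 3 points. The gene nearest to *Klk8* was *Tslp*, a cytokine of epithelial and stromal cells, at a distance of 0.0502, with an FPKM of 10.7 in CTRL, 4.08 with GDF15 and 4.02 with TGF-β. *Sap25* followed at 0.118, and *Tslp* was the 1 gene within 0.1. A fixed distance holds fewer genes the larger the differences of a profile are, so these counts follow the size of the differences already given. Of expressed genes, 745 lay within 0.1 of *Plau*, with *D17H6S53E* and *Xrcc2* nearest. Within the same distance, *Plat* had 61 genes, nearest *Kifc5b* and *Stmn1*, *Plaur* had 34, nearest *Ndufa3* and *Ly6c1*, and *Serpinf1* had 33, nearest *Rnf150* and *Zfp521*. The nearly flat profiles of *Serpine2* (nearest *Sin3a* and *Tbl1xr1*) and *Serping1* (nearest *Taf9* and *Ttll12*) are those of genes with levels near 0, and 1066 and 1734 expressed genes lay within 0.1 of them.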

How the data were processed

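Total RNA of NIH3T3 cells was pooled within each treatment, made into stranded mRNA libraries and sequenced as single-end reads of 50 bases. The authors deposited 1 table of FPKM values calculated with Cufflinks, kept for protein coding genes reviewed in UniProt. The submitters' processing notes name TopHat 1.3.2, Bowtie 0.12.9, Cufflinks 2.0.2 and mm10, while the gene annotation and the strand setting are not given in the sources used here. Columns were matched to treatments by name, and 0 columns were left unused.

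Differences are of log2(FPKM + 1). Genes were counted past 2-fold, the criterion of the study, and past 1.5-fold, with no test. Coordinates, lengths and G and C content came from GENCODE M21 (GRCm38, the assembly of mm10), in which 15444 of 15554 rows matched, 14696 by symbol and 748 by synonym. Depth was estimated from single-transcript genes, and the steps were tested on simulated data. Fragments of a gene are FPKM times length times depth, so those of genes with several transcripts are approximate.

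The members and gene lists were chosen with earlier results of these data known. Named genes are all 7 members, expressed genes of a list (FPKM averaging 1 or more) that passed 1.5-fold with either protein, the 3 highest genes of a list in CTRL, and the 2 nearest profiles per member. The rule was applied to the 6 gene lists. Cell type markers are given by their counts and sums, and the markers named, like *Plg*, were chosen after their values were seen. Serpins of clade E other than *Serpine2* were not analysed here. Alternatives were pseudocounts of 0.5, 0.1 and none, a filter to expressed genes, upper-quartile scaling, removal of the running median, and removal of trends with length or with length and G and C content. Values were computed in Python 3.11.15 with pandas 2.3.3, numpy 2.4.6 and scipy 1.17.1, and plotted with matplotlib 3.10.9.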

Additional observations from a re-analysis of the deposited data

How the results depend on the processing

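No paired analysis was possible because 1 pooled library stood for each treatment, which also means that leaving out a library was not possible. Of 120 values of the 5 expressed genes of the set under 8 alternatives, 4 moved by more than the spread among genes of like expression, all of them *Klk8* with a smaller pseudocount: -1.43 and -1.55 for GDF15 and TGF-β at 0.1, and -1.47 and -1.59 with none. No value past 1.5-fold changed sign. With the trend in length removed, 0 of the 7 genes passed 2-fold with GDF15, beside 31 higher and 7 lower of 15444 genes, and *Klk8* stood at -0.99. With the trend in length and G and C content removed, again 0 passed, beside 34 and 9, and *Klk8* stood at -0.95. At a pseudocount of 0.1, 2 of the 7 passed 2-fold with GDF15. *Serpine2* was added there on about 7 fragments against a library at 0, so that the pseudocount alone sets its size. Between TGF-β and GDF15, 1 gene (*Serpine2*, likewise) passed both folds at a pseudocount of 0.1, where 125 of all genes were over 2-fold higher and 102 lower, against 13 and 3, and 489 and 440 passed 1.5-fold, against 97 and 62. *Serpinf1* with GDF15 ranged from 0.56 to 0.71 and passed 1.5-fold under upper-quartile scaling and with the running median or the length trends removed. *Plaur* with GDF15 ranged from -0.77 to -0.56, and *Plau* with GDF15 from -0.08 to 0.01. Of the 38 other serpins, 2 were more than 1.5-fold higher with TGF-β, beside 1.65% of all genes, *Serpinb5* being named after its values were seen. When the list was held to expressed genes 1 was higher, beside 2.54% of these. Over all genes, upper-quartile scaling turned the split at 1.5-fold from 123 higher and 158 lower to 153 and 108 with GDF15, and from 257 and 303 to 312 and 222 with TGF-β. At a pseudocount of 0.1, 139 genes were over 2-fold higher and 176 lower with GDF15, against 33 and 12. The depth limits *Klk8*, *Serpine2* and *Serping1* most.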
